A study of Mus musculus with 9 samples.

Results

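The 10 genes described here are established targets of p53: Mdm2, Cdkn1a, Ccng1, Sesn1, Trp53inp1, Bbc3, Pmaip1, Bax, Fas and Tnfrsf10b. They were found by their names on the array, where all 10 had at least 1 probe, among 36413 names of genes or regions in all. All 10 also lay well above background on every array, which made them 10 of the 22900 genes tested. Each gene is represented by its probe with the highest mean over the 9 arrays.

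RNA was measured on 9 one-colour Agilent arrays in cultured mouse LSK cells, the bone marrow fraction without lineage markers and with Sca1 and cKit, which holds blood stem cells and early progenitors. All cells came from female mice of the strain Gt(ROSA)26Sor CreERT2, in which a tamoxifen-activated Cre recombinase is expressed from the Rosa26 locus, and all were kept for 72 h with 250 nM 4OH-tamoxifen, so the control cells saw both Cre and tamoxifen. The 3 control samples carried no floxed allele that the labels name, the 3 Drosha-deleted samples were Drosha fl/fl and the 3 Dicer-deleted samples were Dicer fl/fl. Each well of 50 µL received 50000 cells in medium with 10% FCS, 50 ng/mL stem cell factor (SCF), 10 ng/mL IL-6 and 10 ng/mL IL-3. The labels do not give the age of the mice or say whether the repeats came from separate mice, so p-values measure only the spread between these samples, which may be technical. The arrays measured bulk RNA, in which fewer cells of a type and less RNA per cell cannot be told apart.

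p53 is a transcription factor that is kept low by the ubiquitin ligase Mdm2 and becomes stable after DNA damage, oncogene activity or ribosomal stress. It then raises transcription of genes that stop the cell cycle, of genes that release death signals at mitochondria or at the cell surface, and of Mdm2 itself, which closes a negative feedback loop. In blood stem cells p53 is known for its part in quiescence and in loss of cells after radiation. Drosha and Dicer cut microRNAs out of their precursors in consecutive steps, and microRNAs act on both ends of this pathway: the miR-17 family is known to repress Cdkn1a, and the miR-34 family is itself transcribed under p53.

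Mature microRNAs of both families, 4 of the first and 2 of the second, are shown because each family shares its seed, bases 2 to 8, which is in capitals (RefSeq, GRCm38.p6). The miR-17 family members miR-106a-5p and miR-20b-5p carry the same seed and are left out. The arrays did not measure mature microRNAs, so these sequences carry no value here.
mmu-miR-17-5p: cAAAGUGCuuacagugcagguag
mmu-miR-20a-5p: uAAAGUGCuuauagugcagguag
mmu-miR-93-5p: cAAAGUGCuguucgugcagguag
mmu-miR-106b-5p: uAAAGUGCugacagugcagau
mmu-miR-34a-5p: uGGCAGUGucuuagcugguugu
mmu-miR-34b-5p: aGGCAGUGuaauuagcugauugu

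RefSeq promoter windows of 300 bases, from 250 before to 50 after a transcript start, were matched for 7 of the 10 genes, in 11 windows; Pmaip1, Trp53inp1 and Tnfrsf10b were not matched. The windows were searched on both strands for the p53 consensus element of 10 bases, which p53 binds as a pair. It was present in 5 of the 11 windows, 1 each of Bax, Ccng1, Cdkn1a, Mdm2 and Sesn1, and in 8.36% of all 32851 windows of that length. The upstream of the 2 Cdkn1a windows held a pair of elements no more than 13 bases apart, an arrangement found in 24 windows, or 0.0731% of all. The 250 bases before the start are shown for that window and for the first of 3 Bbc3 windows, which held no element. These 2 genes had the largest differences from control in the authors' values. A match is a description of the sequence and not evidence of binding. Capitals mark the elements, which began 73 and 51 bases before the Cdkn1a start. Only exact matches were sought, so an element with a mismatch stays in small letters.
Cdkn1a, GRCm38.p6 chr17:29090729-29090978, + strand: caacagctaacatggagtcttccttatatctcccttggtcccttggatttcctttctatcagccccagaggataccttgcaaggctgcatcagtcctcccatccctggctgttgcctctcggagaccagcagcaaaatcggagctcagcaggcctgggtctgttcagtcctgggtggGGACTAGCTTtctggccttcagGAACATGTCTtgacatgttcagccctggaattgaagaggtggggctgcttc
Bbc3, GRCm38.p6 chr7:16309333-16309582, + strand: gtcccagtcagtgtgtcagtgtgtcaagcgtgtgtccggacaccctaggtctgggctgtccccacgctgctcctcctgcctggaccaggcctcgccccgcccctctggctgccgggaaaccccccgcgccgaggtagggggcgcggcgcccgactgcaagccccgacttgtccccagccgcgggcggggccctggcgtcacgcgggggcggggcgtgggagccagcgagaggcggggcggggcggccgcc

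Some arrays stood apart from the others before any group was compared. In the authors' values, control replicates 2 and 3 correlated best with each other (r = 0.994, across probes), while control replicate 1 correlated best with Dicer-deleted replicate 3 (r = 0.995). Over the probes of the tested genes, the authors' column of control replicate 2 correlated at 0.882 with its own scanner file and at 0.986 with that of control replicate 3, and in that scanner file 18.9% of the spots were marked non-uniform. Of the 2 slides, 1 carried 8 of the arrays and the other carried control replicate 3. The deletions were visible at their targets: the Drosha probe, named Rnasen on the array, read 11.85 to 12.04 in control and 8.81 to 9.32 in Drosha-deleted cells (difference −2.91, limma adjusted p = 0.000152). The Dicer1 probe read 9.92, 10.50 and 10.44 in control and 8.99, 9.18 and 8.97 in Dicer-deleted cells (difference −1.24, limma adjusted p = 0.119). Its groups did not overlap, as for 21.6% of all genes. Where these probes lie relative to the floxed parts is not given in the sources used here. All 8 LSK and progenitor markers, Kit, Ly6a and Cd34 among them, were detected.

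None of the 10 targets passed the threshold in any comparison. With limma and Benjamini-Hochberg adjustment over 22900 genes, 0 of 10 had an adjusted p under 0.05 in Drosha-deleted against control cells, where 0.17% of all genes did. The count was also 0 of 10 in Dicer-deleted against control cells (all genes, 0.0175%), in Drosha-deleted against Dicer-deleted cells (0.0568%) and in both deletions pooled against control cells (0.131%). At an unadjusted p under 0.05 there were 3 of the 10 in the Drosha comparison, against 27% of all genes, 0 in the Dicer comparison against 21.9%, 0 between the deletions against 5.69%, and 2 in the pooled comparison against 30.2%. The median difference of the 10 genes was −0.07 on the log2 scale for Drosha, 0.08 for Dicer and 0.02 pooled, beside a median of all genes at 0.00 in each. No gene of the 10 had groups without overlap (0 of 10 in each comparison), where 23.2% of all genes had such groups for Drosha, 21.6% for Dicer, 15.4% between the deletions and 9.47% pooled. The medians hide differences of opposite sign, with Cdkn1a at one end and Bbc3 at the other.

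**Figure D1:**
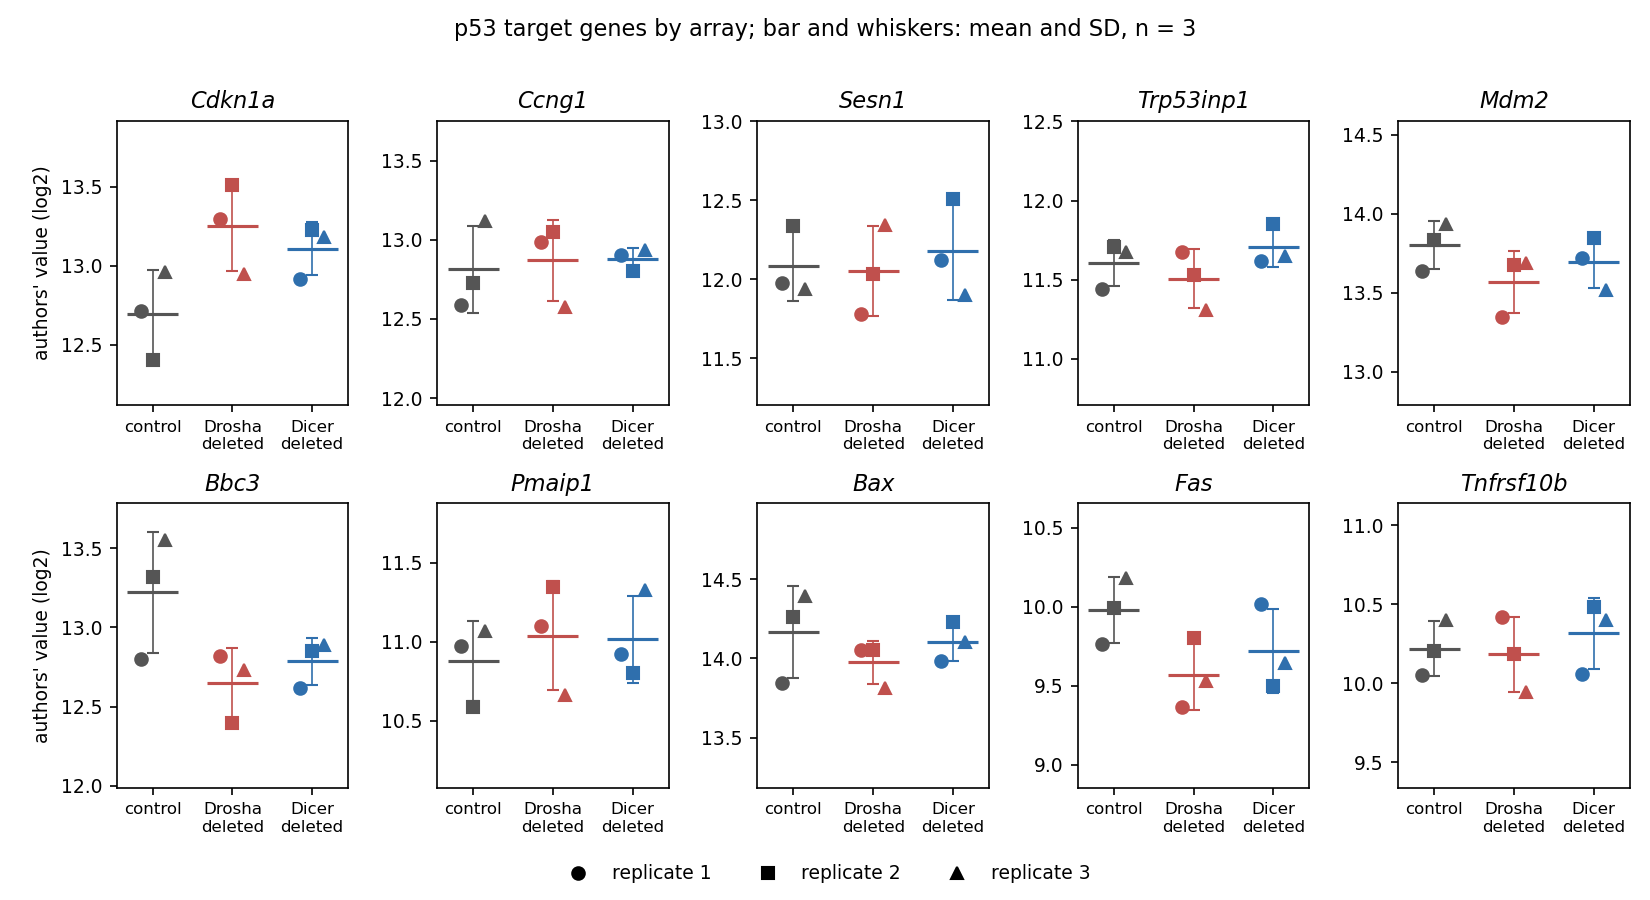
The authors' log2 value of each of the 10 p53 targets on the y axis is plotted for the 3 arrays of each group, with the group mean as a bar and the SD as whiskers (n = 3); all panels span the same range. Control replicates 2 and 3 lie above all 6 deletion arrays for Bbc3 and Bax, and control replicate 1 lies within the range of the deletion arrays in 9 of the 10 panels.

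Mdm2, the ligase that degrades p53 and is itself a p53 target, was at 13.64, 13.83 and 13.94 (log2) in the control arrays, 13.34, 13.68 and 13.68 in the Drosha-deleted arrays and 13.72, 13.85 and 13.52 in the Dicer-deleted arrays. The groups overlapped. Its mean was 13.80 ± 0.15 (SD, n = 3) in control cells, 13.57 ± 0.19 after loss of Drosha and 13.69 ± 0.16 after loss of Dicer. The differences from control were −0.23 and −0.11 (limma adjusted p = 0.323 and 0.675), and their 95% intervals ran from −0.57 to 0.10 and from −0.44 to 0.23.

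Cdkn1a encodes the cyclin-dependent kinase inhibitor p21 and so carries much of the cell cycle arrest by p53. In the authors' values it had the highest difference of the 10 in both deletions. Its probe (mm9, chr17:29237377-29237436, + strand) read 12.71, 12.40 and 12.96 in control cells, 13.30, 13.51 and 12.95 in Drosha-deleted cells and 12.91, 13.23 and 13.18 in Dicer-deleted cells. Both deletion groups overlapped the control group, in each case at control replicate 3. The mean was 12.69 ± 0.28 (SD, n = 3) in control cells, 13.25 ± 0.28 without Drosha and 13.11 ± 0.17 without Dicer. This gave a difference of 0.56 for Drosha (SE 0.19, 1.47-fold, 95% interval 0.13 to 0.99), which did not pass (limma adjusted p = 0.126). The difference for Dicer was 0.42 (95% interval −0.02 to 0.85, limma adjusted p = 0.241), and pooled it was 0.49 (adjusted p = 0.104). The probe was printed in 10 spots, whose SD within an array was 0.0648 to 0.136, so spot error was smaller than the spread between arrays.

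The sign of the Cdkn1a difference from control was positive in all 19 alternative analyses for each deletion and in all 18 of the pooled comparison, but its size was not stable. It ranged from 0.19 to 0.89 for Drosha, from 0.18 to 0.77 for Dicer and from 0.24 to 0.83 pooled. The lowest Drosha value came from averaging all 3 Cdkn1a probes, including a probe with weak signal. The highest came from the scanner values scaled to the 75th percentile of each array. Relative to the median of all genes it was 0.615. Leaving control replicate 2 out of those scanner values gave 0.30 for Drosha and 0.18 for Dicer (limma adjusted p = 0.571 and 0.795). With control replicate 1 as the lone control array, Cdkn1a was at 0.54 for Drosha and 0.40 for Dicer. That choice of control was made after the data were seen, and a lone array gives no spread of its own: limma takes the spread from the deletion groups and assumes that the lone array varies as they do, so values of this kind are given here and below without a p.

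The other Cdkn1a probes did not repeat this pattern in full. A second probe was annotated to transcript variant 2 (mm9, chr17:29227986-29228045). It read 8.29, 8.10 and 8.43 in control cells, 8.94, 8.83 and 7.88 in Drosha-deleted cells and 8.76, 8.99 and 9.01 in Dicer-deleted cells. On this probe all Dicer-deleted arrays were above all control arrays, where 21.6% of all genes had groups without overlap in either direction. The difference was 0.65 (limma adjusted p = 0.208 over 31207 probes), while Drosha-deleted replicate 3 was below all control arrays. The other probe (mm9, chr17:29235299-29235358), annotated to another transcript, differed from control by −0.27 and −0.14 (limma adjusted p = 0.326 and 0.639). Its signal was weak, at 5.78 to 6.56 over the 9 arrays, where the median of all spots was 6.23 to 6.24. It was well above background on 8 of the 9 arrays. Levels of different probes cannot be set against each other.

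**Figure D2:**
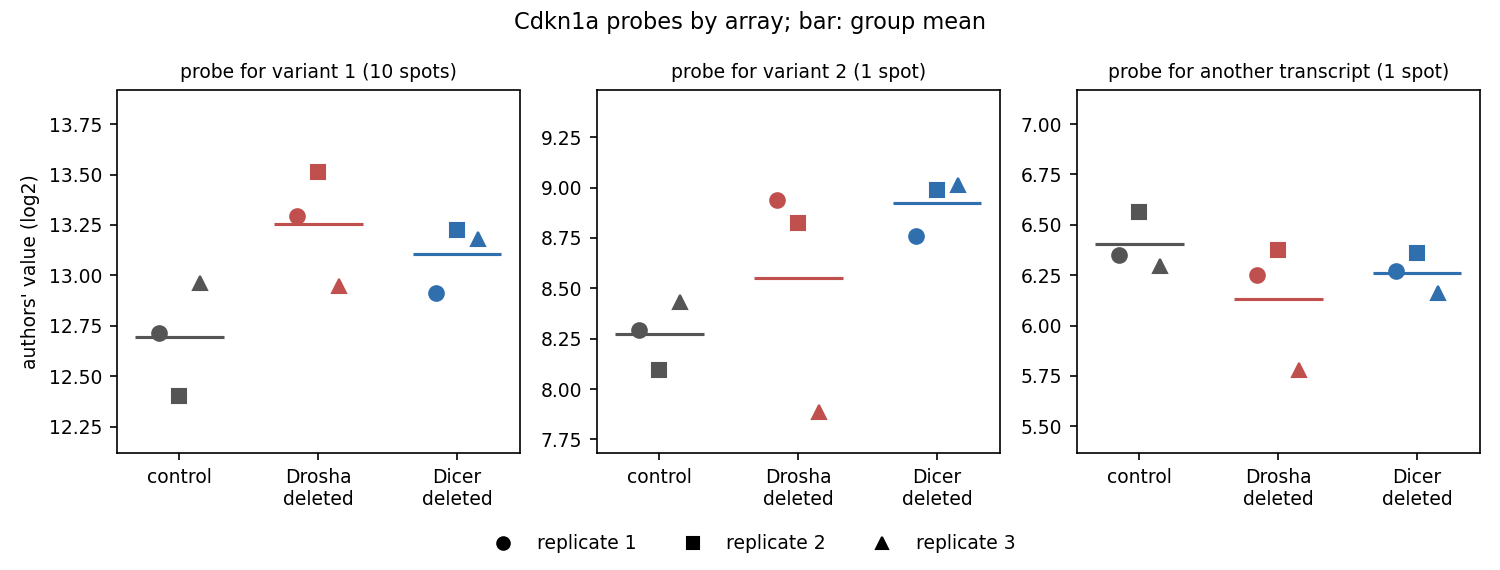
The authors' log2 values of the 3 Cdkn1a probes are plotted on the y axis for the 3 arrays of each group, with the group mean as a bar. The probes annotated to variant 1 and variant 2 have higher means in both deletions. Whether they tell the variants apart is not given in the sources used here. Drosha-deleted replicate 3 is the lowest deletion array on the variant 2 probe and on the probe for another transcript. The latter probe has its highest mean in control cells.

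Ccng1, cyclin G1, which recruits a phosphatase to Mdm2, showed almost no difference. Its arrays read 12.59, 12.73 and 13.12 in control cells, 12.98, 13.05 and 12.58 in Drosha-deleted cells and 12.90, 12.80 and 12.94 in Dicer-deleted cells. All Dicer-deleted arrays lay inside the control range. The differences from control were 0.06 and 0.07 (limma adjusted p = 0.851 and 0.834).

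The stress response genes were near 0 too. Sesn1, a sestrin that restrains mTORC1 and oxidative stress, read 11.97, 12.34 and 11.94 in control cells, 11.78, 12.04 and 12.34 without Drosha and 12.12, 12.51 and 11.90 without Dicer, with differences of −0.03 and 0.09. Trp53inp1, a nuclear protein that promotes the apoptotic activity of p53 and autophagy, read 11.44, 11.71 and 11.67 in control cells, 11.68, 11.53 and 11.31 without Drosha and 11.62, 11.85 and 11.65 without Dicer. Its differences were −0.10 and 0.10, and the widest bound of its 95% intervals was 0.42 in either direction. A second Trp53inp1 probe differed from control by −0.15 and −0.00. The groups overlapped for both genes, and the limma adjusted p was 0.660 or above.

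Bbc3 encodes PUMA, a BH3-only protein that neutralises the survival proteins of the Bcl2 family. In the authors' values it had the lowest difference of the 10 in both deletions. Its probe (mm9, chr7:16903403-16903462, + strand) read 12.80, 13.32 and 13.55 in control cells, 12.82, 12.40 and 12.73 in Drosha-deleted cells and 12.62, 12.85 and 12.89 in Dicer-deleted cells. Control replicates 2 and 3 were above all 6 deletion arrays, and control replicate 1 was among them. The mean was 13.22 ± 0.38 (SD, n = 3) in control cells, 12.65 ± 0.22 without Drosha and 12.79 ± 0.15 without Dicer. The Drosha difference was −0.57 (SE 0.20, 95% interval −1.03 to −0.11) and did not pass (limma adjusted p = 0.133). The Dicer difference was −0.44 (95% interval −0.90 to 0.02, adjusted p = 0.243).

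The Bbc3 result depended on which control arrays were used. Without control replicate 1 it was called in both deletions, at −0.78 for Drosha (limma adjusted p = 0.00844) and −0.65 for Dicer (adjusted p = 0.0203), in fits that called 7734 and 7006 of the 22900 genes (33.8% and 30.6%) in place of 39 and 4. It was the 1 gene of the 10 called in each of those fits. Control replicate 1 lay inside the range of the 6 deletion arrays for 77.6% of all genes, so leaving it out favours calls against control. This array was singled out after the data were seen. The p-values without it, here and below, are descriptions and add no support for a difference. With control replicate 1 as the lone control array the differences were −0.15 and −0.02. With the scanner values scaled to the 75th percentile, the Drosha difference was 0.03 and the Dicer difference 0.19, where the median of all genes was 0.28 and 0.30; relative to that median they were −0.25 and −0.11. Leaving control replicate 2 out of those scanner values gave −0.63 and −0.47 (adjusted p = 0.391 and 0.573).

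Pmaip1 encodes NOXA, another BH3-only protein, and its difference had the same sign as that of Cdkn1a. It read 10.97, 10.59 and 11.07 in control cells, 11.10, 11.35 and 10.67 without Drosha and 10.92, 10.80 and 11.33 without Dicer. Each group spanned much of the range of the others, and the differences of 0.16 and 0.14 were below the SD of every group. Its 95% intervals were the widest of the 10 genes, at ± 0.49. In the scanner values after normexp background correction and quantile normalisation its differences were 0.81 and 0.81 (limma adjusted p = 0.604 and 0.633). Those of Cdkn1a there were 0.66 and 0.52, and the medians of all genes 0.22 and 0.21. At the 75th percentile scaling Pmaip1 was at 0.64 and 0.67, and at −0.05 and −0.02 with control replicate 2 left out.

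Bax, which forms pores in the outer mitochondrial membrane, read 13.84, 14.26 and 14.40 in control cells, 14.05, 14.06 and 13.82 without Drosha and 13.98, 14.23 and 14.11 without Dicer. As for Bbc3, control replicates 2 and 3 were above all 6 deletion arrays and control replicate 1 was not. The differences were −0.19 and −0.06 (limma adjusted p = 0.458 and 0.840), and they were 0.13 and 0.26 with control replicate 1 as the lone control array.

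The genes of the cell surface death pathway were measured at Fas and Tnfrsf10b. Fas, the receptor for Fas ligand, read 9.76, 9.99 and 10.18 in control cells, 9.36, 9.80 and 9.53 without Drosha and 10.02, 9.50 and 9.65 without Dicer. With Cdkn1a and Bbc3 it made up the 3 genes under an unadjusted p of 0.05 for Drosha, at a difference of −0.41 (limma adjusted p = 0.185), and control replicate 1 lay below Drosha-deleted replicate 2. Its sign turned to 0.34 in the scanner values after normexp background correction and quantile normalisation, where the median of all genes was 0.22. At the 75th percentile scaling the Drosha difference of Fas was −0.08, and −0.47 with control replicate 2 left out (limma adjusted p = 0.941 and 0.417). Tnfrsf10b, the mouse receptor for TRAIL, read 10.05, 10.20 and 10.40 in control cells, 10.42, 10.19 and 9.95 without Drosha and 10.06, 10.48 and 10.40 without Dicer, with differences of −0.03 and 0.10. In the normexp and quantile values the Tnfrsf10b differences were 0.80 and 0.90 (limma adjusted p = 0.604 and 0.627), beside medians of all genes of 0.22 and 0.21. At the 75th percentile scaling they were 0.50 and 0.62, and −0.10 and 0.02 with control replicate 2 left out.

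**Figure D3:**
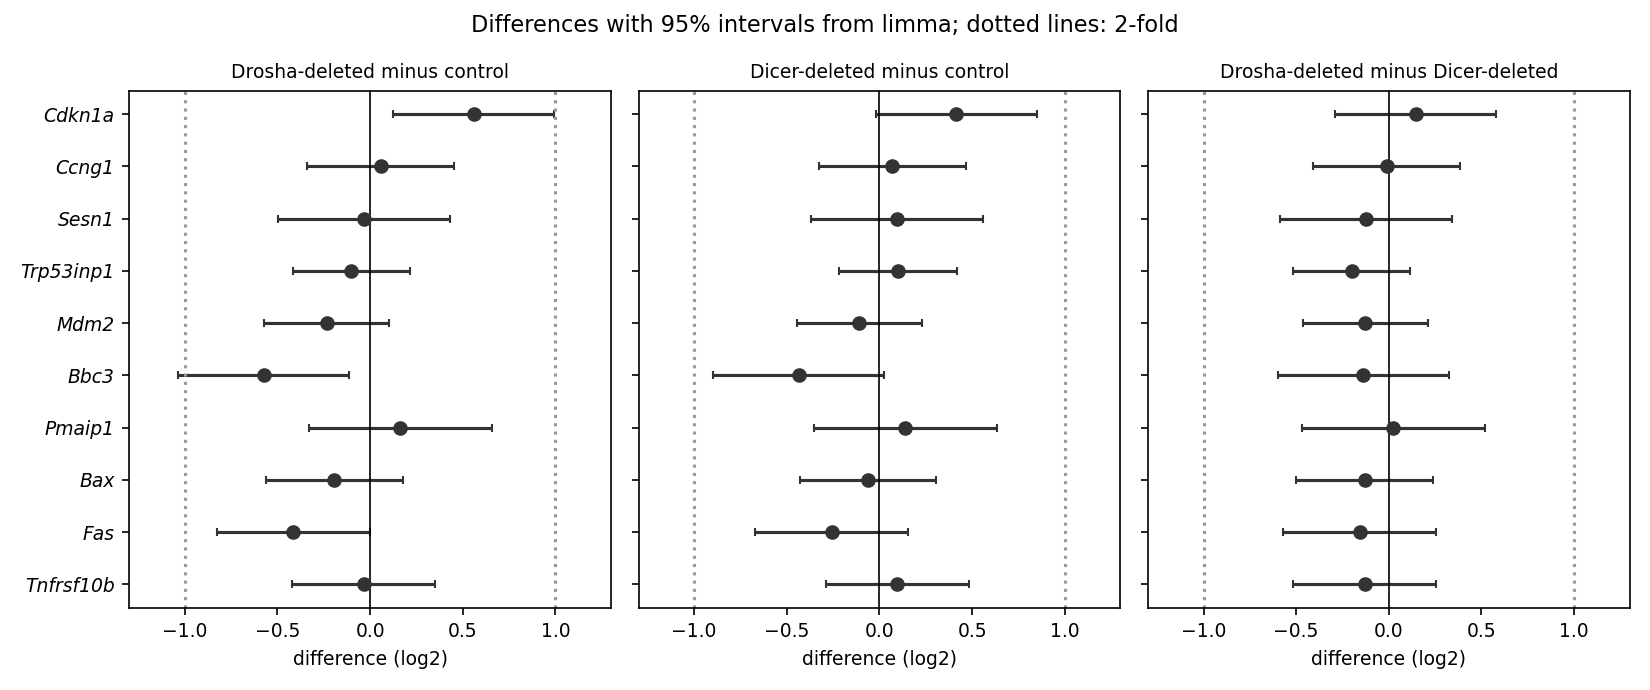
Differences in log2 value are plotted on the x axis for the 10 p53 targets, with 95% intervals from limma as lines, for each deletion against control and for the deletions against each other; dotted lines mark 2-fold. In the Drosha panel the intervals of Cdkn1a, Bbc3 and Fas leave out 0, and in the other panels every interval includes 0.

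The deletions did not differ from each other beyond the error for any of the 10 genes. The differences of Drosha-deleted minus Dicer-deleted cells ran from −0.20 (Trp53inp1) to 0.14 (Cdkn1a), each with a limma adjusted p of 0.999, and 8 of 10 were negative. All 10 intervals lay within 2-fold, the outermost bounds being −0.60 and 0.58. Against control, 9 of 10 intervals for Drosha and 10 of 10 for Dicer lay within 2-fold, and the exception was the lower bound of Bbc3. These intervals are for single genes and bound what the 9 arrays could show, and they do not show that the groups are alike.

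The position of the control arrays was counted over the 10 genes. Control replicate 1 lay inside the range of the 6 deletion arrays for 9 of 10 genes, as for 77.6% of all tested genes. Control replicates 2 and 3 were both above that range for 2 of 10 (Bax and Bbc3), against 23.7% of all genes, and both below it for 0 of 10, against 23.8%. Both were above control replicate 1 for 7 of 10, against 43.6% of all genes. Control replicate 1 thus sat with the deletion arrays for these genes as it did for most genes on the array. Giving each array a weight by its agreement with the fit left control replicate 1 a weight of 0.146 and called 5 of the 10 genes for Drosha, with Cdkn1a higher and Mdm2, Bbc3, Bax and Fas lower, while 11641 of the 22900 genes (50.8%) were called.

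Across the 9 arrays the 10 genes did not move as a block. Pearson correlations between pairs of them ran from −0.75 (Pmaip1 and Sesn1) to 0.83 (Trp53inp1 and Tnfrsf10b), and Cdkn1a and Bbc3 were at −0.54. These are descriptions over 9 arrays that share the normalisation and the group structure. The genes whose values were most like those of Cdkn1a over the 9 arrays were Ripk3 (r = 0.946), which encodes a kinase of necroptosis, 1700030C10Rik (0.939), LOC100047154 (0.934), a lincRNA region on chromosome 8 (0.932) and Hcrtr1 (0.932).

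Trp53 itself, whose protein is controlled mainly by its stability, read 10.16, 10.97 and 10.55 in control cells, 10.25, 10.44 and 10.53 without Drosha and 10.32, 11.35 and 10.23 without Dicer. Its groups overlapped, with pooled difference −0.04 (limma adjusted p = 0.936). Among 21 regulators and relatives of p53, 0 passed in any comparison, and 4 had an unadjusted p under 0.05 in the pooled one, 2 higher and 2 lower, against 30.2% of all genes. Without control replicate 1, 6 of the 21 passed pooled, 2 higher and 4 lower, where 37.4% of all genes did. The largest of these was Cdkn2a, whose locus encodes the Cdk4 inhibitor p16 and the Mdm2 inhibitor Arf. It read 9.21, 9.17 and 9.77 in control cells, 8.52, 8.19 and 6.66 without Drosha and 6.83, 6.46 and 7.32 without Dicer.

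All 6 deletion arrays were below all 3 control arrays for Cdkn2a, a separation in that direction that 3.89% of all genes had. Cdkn2a was named for a small pooled p, which favours such a separation. The difference was −1.59 for Drosha, −2.51 for Dicer and −2.05 pooled (limma adjusted p = 0.108, 0.119 and 0.0559), so it narrowly missed the threshold. The pooled difference was −1.88 with control replicate 1 as the lone control array. It was −2.14 without control replicate 1 (limma adjusted p = 0.0100), where 37.4% of all genes passed. Trp73, a relative of p53, was 1.04 higher pooled (adjusted p = 0.0708), but control replicate 1 at 8.41 was near the deletion arrays, which read 8.58 to 8.86, and the other control arrays read 7.32 and 7.17. With control replicate 1 alone its difference was 0.27, and without it 1.43 (limma adjusted p = 9.86e-05). Trp63, another family member, and Rchy1, a ubiquitin ligase for p53, differed by 0.43 and −0.34 pooled (adjusted p = 0.103 and 0.125), and by 0.61 and −0.49 without control replicate 1 (adjusted p = 0.00350 and 0.00770).

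Other targets of p53 gave no call either. Of 24 genes of arrest and stress, 0 passed, and at an unadjusted p under 0.05 there were 2 higher and 7 lower in the pooled comparison, against 17.1% and 13.2% of all genes. The list median was −0.20 pooled, −0.02 with control replicate 1 as the lone control array and −0.28 without it. Without control replicate 1, 10 of the 24 passed pooled, 2 higher and 8 lower, where 37.4% of all genes did. Ephx1, an epoxide hydrolase, read 10.53, 10.89 and 10.95 in control cells and 10.08 to 10.37 in the 6 deletion arrays, with a pooled difference of −0.55 (limma adjusted p = 0.0708). Ccng2, cyclin G2, was at −0.70 (0.0790), Gtse1, a G2 phase protein that acts back on p53, at 0.77 (0.0824) and Pltp, a phospholipid transfer protein, at −0.30 (0.0927). All 4 passed without control replicate 1, Ephx1 at −0.68, Ccng2 at −0.93, Gtse1 at 1.05 and Pltp at −0.32 (limma adjusted p = 0.00322, 0.00283, 0.00173 and 0.0312).

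Of 18 measured genes of the apoptosis list, 0 passed and 4 had an unadjusted p under 0.05 in the pooled comparison, 1 higher and 3 lower, against 30.2% of all genes. Of the 18, 6 passed pooled without control replicate 1, 2 higher and 4 lower, where 37.4% of all genes did. Eda2r, a death receptor relative induced by p53, read 6.02, 6.50 and 6.39 in control cells, 5.62, 5.50 and 5.56 without Drosha and 5.46, 5.59 and 5.67 without Dicer. All deletion arrays were below all control arrays, as for 3.89% of all genes. Eda2r too was named for a small pooled p, which favours such a separation. The pooled difference of −0.74 had an adjusted p of 0.0559 in limma. Its difference was −0.46 with control replicate 1 alone, and −0.88 without it (limma adjusted p = 0.000458). Apaf1, the scaffold of the apoptosome, had a mean of 10.67 in control cells, 9.59 without Drosha and 9.74 without Dicer (pooled adjusted p = 0.0904), but control replicate 1 at 9.76 lay among the deletion arrays at 9.20 to 9.94, and the other control arrays were at 11.21 and 11.03. Triap1 and Lrdd, the older name of Pidd1, were at −0.33 and 0.33.

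Of 11 DNA repair targets 0 passed, with 1 higher and 1 lower at an unadjusted p under 0.05 in the pooled comparison, against 30.2% of all genes. Of the 11, 3 passed pooled without control replicate 1, 1 higher and 2 lower, where 37.4% of all genes did. Polk, a translesion polymerase, was at −0.43 (limma adjusted p = 0.0800) and Xpc, a sensor of helix distortion, at 0.37 (adjusted p = 0.0883). Each had all deletion arrays on one side of all control arrays, as had 9.47% of all genes. Both were named for a small pooled p, which favours such a separation. Ddb2 and Rad51c were at −0.30 and −0.20 pooled. Without control replicate 1, Ddb2 was at −0.49 and passed (limma adjusted p = 0.00564).

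The 20 genes that p21 is known to repress through the DREAM complex are mainly mitotic. In the pooled comparison 0 passed, while 17 of 20 differences were positive and 7 had an unadjusted p under 0.05, all 7 higher, against 17.1% of all genes. The list median was 0.15. Cdk1, the kinase that drives entry into mitosis, read 12.84, 12.10 and 12.23 in control cells and 12.87 to 13.17 in the 6 deletion arrays, with a pooled difference of 0.63 (limma adjusted p = 0.0771).

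With control replicate 1 as the lone control array the median of the mitotic list was 0.06, and 17 of 20 differences were still positive. Without control replicate 1, 7 of 20 passed, all higher, where 37.4% of all genes passed. Aurkb, a kinase of the chromosome passenger complex, shows the split: it read 8.93, 6.69 and 6.32 in control cells and 8.86 to 9.08 in the deletion arrays. Its pooled difference was 1.68 with all control arrays (limma adjusted p = 0.0857), 0.06 with control replicate 1 alone and 2.49 without it. Kif23, a kinesin of cell division, and Aurka, a kinase of the spindle poles, were at 0.49 and 0.30 pooled (limma adjusted p = 0.0868 and 0.104). Both had all deletion arrays above all control arrays, where 9.47% of all genes had groups without overlap in either direction. These 2 genes were also named for a small pooled p, which favours such a separation.

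**Figure D4:**
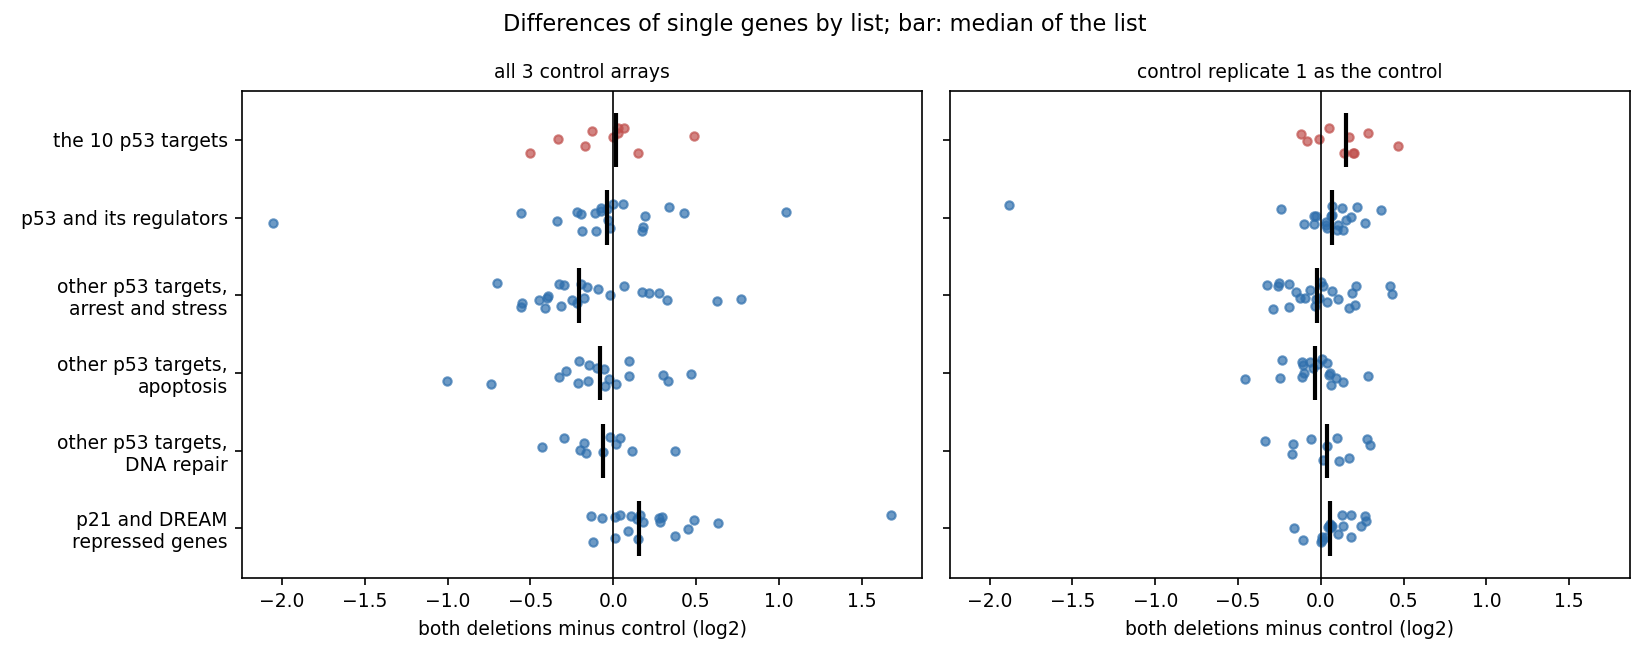
Each point is the difference of 1 gene, pooled deletions minus control on the x axis in log2 units, for the 10 targets and the 5 other lists of the pathway, with the list median as a bar. The left panel uses all 3 control arrays and the right panel control replicate 1 as the lone control array; the spread is narrower on the right in each list, the points beyond ± 0.5 there come down to Cdkn2a at −1.88, and Cdkn1a is the highest of the 10 targets in both panels.

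Summed levels of markers of some other blood cells differed in range between the groups, and their part in the values above was not tested. All 10 monocyte and macrophage markers had a negative Drosha difference (median −0.80), with 1 passing (Cd14, −1.26, limma adjusted p = 0.0298), and their summed linear level was 25500 to 31300 in Drosha-deleted, 27100 to 51900 in Dicer-deleted and 34200 to 55300 in control arrays. The summed level of 6 megakaryocyte markers was 276000 to 325000 in Dicer-deleted, 325000 to 393000 in Drosha-deleted and 388000 to 434000 in control arrays. The 8 neutrophil markers summed to between 383000 and 1170000 over the 9 arrays, with overlap of all groups. Control cells and each deletion also overlapped in the sums of the mast and basophil, erythroid, eosinophil and dendritic markers. Of the 6 T cell markers, Cd3g, Cd3d and Cd8a were not well above background on most arrays. The list summed to 8200, 4060 and 4295 in control replicates 1, 2 and 3. It summed to 9370 to 9820 in Drosha-deleted and 8650 to 9900 in Dicer-deleted arrays. Of the 3 tested T cell markers, 2 had a positive and 1 a negative pooled difference. Their median was 0.65 pooled, and −0.03 with control replicate 1 as the lone control array. Of the 6 B cell markers, Ebf1, Pax5 and Ms4a1 were not well above background on 8 of 9 arrays.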

How the data were processed

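Per the file headers, the scanner files hold Cy3 intensity values from Agilent Feature Extraction, with probes placed on mm9; the processed signal is background-subtracted and not normalised between arrays. The authors' deposited values are on a log2 scale, with nearly equal quantiles in all columns and no centring; per the submitters' processing notes limma was used, and the background step is not given in the sources used here. These log2 values were the main measure, joined to probes by feature number.

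Control spots (3671 of 62976) were left out. Of 55681 probes, the 31207 that were well above background on all 3 arrays of some group were kept, and a gene was represented by the kept probe with the highest mean. Group means were fitted over all 9 arrays with limma 3.58.1 in R 4.3.3 (data.table version 1.17.8), with Benjamini-Hochberg adjustment and a threshold of 0.05; the 4 comparisons share control arrays or deletion arrays. The pipeline was tested on simulated data. The number of arrays limits the precision. Each named gene is 1 of the 10 targets, Trp53, Drosha or Dicer1, passed the threshold in its list, had 1 of the 4 smallest pooled p of its list, or was among the 5 most like Cdkn1a; Kit, Ly6a and the markers that were not detected were named after their values were seen. The 10 genes and all lists were chosen with earlier results of these data known. Alternatives were scanner values under 2 scalings, no filter, other probe rules, blocks, array weights and left-out arrays. Replicate numbers did not pair the samples: deviations of same-numbered arrays correlated at −0.28 to 0.24, and of others at −0.30 to 0.28.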

Additional observations from a re-analysis of the deposited data

How the results depend on the processing

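Of 750 differences of the 10 targets recomputed under an alternative, 649 kept their sign and their side of the threshold, 14 became called, and 84 changed sign with neither value at an unadjusted p under 0.05. Another 3 changed sign from a value with an unadjusted p under 0.05: Bbc3 to 0.0303 (Drosha) and 0.11 (pooled) in the scanner values scaled to the 75th percentile, and Fas to 0.34 (Drosha) in those with normexp and quantile normalisation. All 14 calls came from array weights or from leaving out control replicate 1. Array weights called 5 of 10 targets for Drosha, 1 for Dicer (Bbc3) and 5 pooled, against 50.8%, 43.8% and 52.7% of all genes. Leaving out control replicate 1 called only Bbc3 in each of the 3 comparisons with control, against 33.8%, 30.6% and 37.4% of all genes. Leaving out 1 array gave 0 to 1 called targets in each of these comparisons.

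The count of all genes called by limma was 39 for Drosha, 4 for Dicer, 13 between the deletions and 30 pooled. It was 13, 3, 4 and 7 in the scanner values at the 75th percentile, where the median of all genes was 0.28, 0.30, −0.01 and 0.29 and the split for Drosha was 6 higher to 7 lower in place of 28 to 11. It was 1, 0, 1 and 0 after normexp and quantile normalisation, with 1780 (Dicer) and 2969 (pooled) genes at an unadjusted p under 0.05 beside the counts of 0. Leaving control replicate 2 out of the scanner values gave 10, 4, 5 and 3, and no filter gave 25, 2, 10 and 10. Array weights gave 11641, 10027, 154 and 12060. Fitting only the groups compared gave 5 for Drosha and 0 for Dicer (3995 at an unadjusted p under 0.05). Leaving out 1 array gave 4 to 7734, 0 to 7006, 4 to 16 and 3 to 8576; the highest counts with control were without control replicate 1. Leaving out control replicates 2 and 3, chosen after the data were seen, gave 21 for Dicer in place of 4. With the replicate number as a block, limma called 4, 0, 5 and 0 genes (4510 and 6266 at an unadjusted p under 0.05 where the count was 0) and 0 of the 10 targets. The cause of these changes was not tested. With 3 arrays a group, the 95% interval of a single target against control was ± 0.32 to ± 0.49.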
